A study of Mus musculus with 2 samples.

Results

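The genes described are 7 cytochrome P450 genes of steroid, vitamin D, retinoid and xenobiotic metabolism, Cyp27b1, Cyp27a1, Cyp26b1, Cyp11a1, Cyp1a1, Cyp2s1 and Cyp8b1, taken by symbol from the 4183 rows of the deposited expression table, where all 7 were found. RNA-seq was done on dorsal skin of C57BL/6 mice aged 18 to 20 months, either after red light irradiation at 8 J/cm² once a day for 28 days or with no treatment. GEO describes 1 sample per group, and the table gives for each gene the authors' mean FPKM (a fragment count set relative to transcript length and library size) of the red light group and of the untreated group. The sources used here do not give the number of mice or libraries behind a mean.

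Cytochrome P450 enzymes are haem proteins that insert oxygen into lipophilic molecules, and in skin several of them make or break down hormones locally. Keratinocytes form vitamin D from its sterol precursor under ultraviolet light, and hydroxylation by P450s turns it into the ligand of the vitamin D receptor. The receptor itself is needed for the mouse hair cycle. Retinoic acid, made from retinol by dehydrogenases, steers keratinocyte differentiation, sebaceous glands and hair follicles, and P450s of the Cyp26 family clear it. Cholesterol side-chain cleavage opens steroid synthesis, which skin can carry out in part. The aryl hydrocarbon receptor (AHR) induces P450s that handle aromatic compounds, including products that ultraviolet light forms from tryptophan.

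Of the 7 genes, Cyp2s1 and Cyp27b1 were higher and the other 5 were lower in red light skin than in untreated skin. Of all listed genes, 38.7% were higher and 61.3% were lower by their means. The table lists almost only genes whose means differed by at least about 2.001-fold, so the 7 were bound to differ by that much, and the count of 2 higher and 5 lower is close to the split of the whole table. Neither the spread between mice nor the read depth is known, so no difference below has a test, an interval for counting error or a replicate check. In bulk tissue, fewer cells of a type and less RNA per cell cannot be told apart.

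The stretches of DNA just upstream of 4 of the genes are shown for what sets these genes apart: Cyp2s1 and Cyp27b1 are the pair that was higher, Cyp26b1 and Cyp1a1 are lower genes of the retinoid and AHR pathways, and Cyp1a1 and Cyp2s1 are both described as AHR targets in mouse. Each line gives the 250 bases before the transcription start in RefSeq (GRCm38.p6), 5′ to 3′ on the gene's strand. Capitals mark GCGTG, the core of the AHR site, AGGTCA, a half-site of nuclear receptors such as those for retinoids and vitamin D, and TATAAA, the TATA box, each searched on both strands.
Cyp2s1 (chr7:25816526-25816775, minus strand): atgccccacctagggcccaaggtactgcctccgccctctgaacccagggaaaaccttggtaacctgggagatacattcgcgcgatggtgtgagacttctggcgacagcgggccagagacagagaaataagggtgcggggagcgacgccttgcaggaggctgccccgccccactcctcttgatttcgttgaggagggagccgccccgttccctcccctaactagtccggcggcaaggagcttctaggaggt
Cyp27b1 (chr10:127047996-127048245, plus strand): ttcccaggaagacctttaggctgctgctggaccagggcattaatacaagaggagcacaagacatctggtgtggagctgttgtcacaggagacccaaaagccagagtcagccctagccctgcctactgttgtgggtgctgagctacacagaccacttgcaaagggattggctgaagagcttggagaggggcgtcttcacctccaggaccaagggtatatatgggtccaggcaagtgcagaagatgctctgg
Cyp26b1 (chr6:84593811-84594060, minus strand): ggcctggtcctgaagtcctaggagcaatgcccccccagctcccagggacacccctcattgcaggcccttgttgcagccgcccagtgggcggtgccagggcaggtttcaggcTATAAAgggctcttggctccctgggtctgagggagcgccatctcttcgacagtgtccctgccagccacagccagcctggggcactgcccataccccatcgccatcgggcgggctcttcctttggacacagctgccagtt
Cyp1a1 (chr9:57697363-57697612, plus strand): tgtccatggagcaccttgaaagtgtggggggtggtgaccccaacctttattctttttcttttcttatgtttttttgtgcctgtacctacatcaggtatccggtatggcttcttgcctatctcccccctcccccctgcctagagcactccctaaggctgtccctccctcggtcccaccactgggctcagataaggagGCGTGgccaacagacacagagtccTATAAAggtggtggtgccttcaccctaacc

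Of the 8 windows of the 7 genes (Cyp11a1 has 2 starts), GCGTG was found only in that of Cyp1a1, 54 bases before the start, ahead of a TATAAA at 30 bases. GCGTG occurred in 28.2% of all 32851 RefSeq windows of this length. TATAAA was found for Cyp1a1, Cyp26b1 and Cyp8b1 and occurred in 12.4% of all windows. AGGTCA was found in 1 of the 2 Cyp11a1 windows, 28 bases before the start, and occurred in 14.0% of all windows. None of these 3 motifs was found in the windows of Cyp2s1, Cyp27b1 and the lower gene Cyp27a1, or in the other Cyp11a1 window. No motif here overlapped another. The files hold no binding data, so a match is a string of letters and no match speaks of these windows only.

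Levels spanned a wide range, as the plot of member levels shows. In red light skin the order was Cyp26b1 at 27.3 FPKM, Cyp2s1 at 15.2, Cyp27a1 at 5.91, Cyp1a1 at 3.35, Cyp11a1 at 1.48, Cyp27b1 at 0.623 and Cyp8b1 at 0.150 FPKM. In untreated skin it was Cyp26b1 at 84.0 FPKM, Cyp27a1 at 16.4, Cyp1a1 at 10.48, Cyp11a1 at 4.55, Cyp2s1 at 2.90, Cyp8b1 at 0.583 and Cyp27b1 at 0.120 FPKM. Cyp2s1 therefore stood above Cyp27a1, Cyp1a1 and Cyp11a1 in red light skin and below all of them in untreated skin, and Cyp27b1 and Cyp8b1 exchanged the lowest places. Which neighbours in either order differ beyond the spread between mice cannot be said from means alone. The 7 genes together summed to 54.0 FPKM in red light skin and 119 FPKM in untreated skin. Cyp26b1 held 50.5% of that sum in red light skin against 70.6% in untreated skin, while Cyp2s1 held 28.2% in red light skin against 2.44% in untreated skin.

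**Figure D1:**
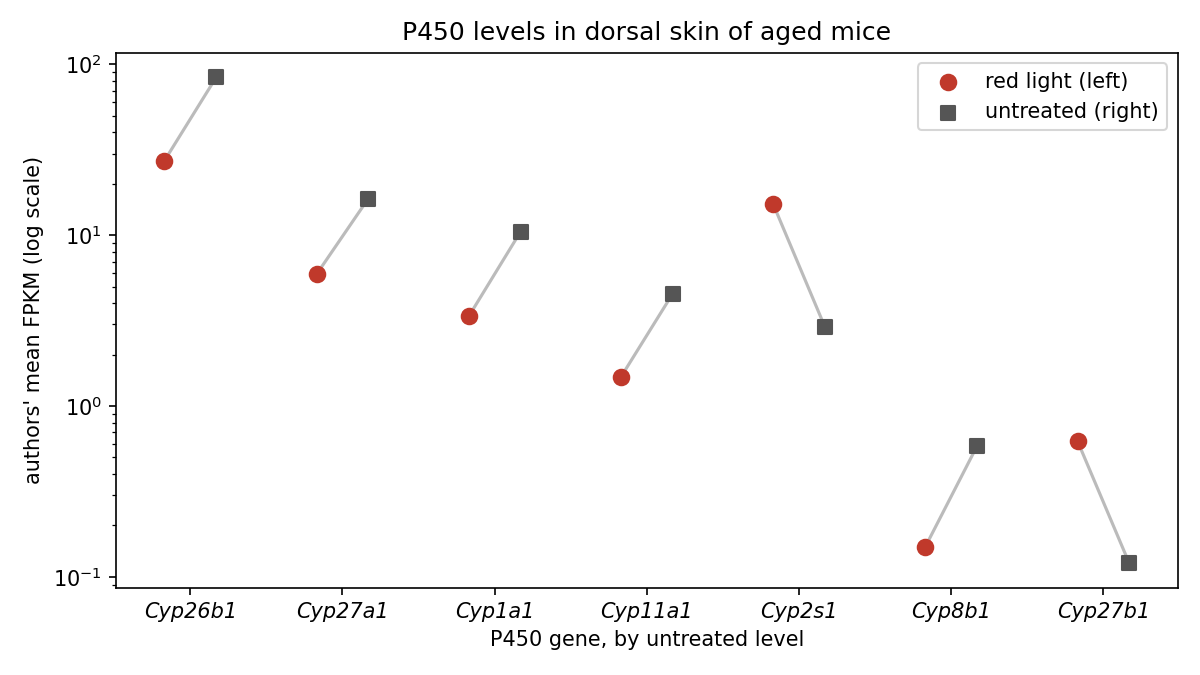
Mean FPKM of the 7 P450 genes on a log scale, with red light skin as circles on the left and untreated skin as squares on the right of each pair, genes ordered by untreated level. Cyp2s1 (15.2 FPKM with red light, 2.90 FPKM untreated) and Cyp27b1 (0.623 FPKM with red light, 0.120 FPKM untreated) are higher in red light skin, and the other 5 are lower.

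Vitamin D metabolism is represented by a pair of genes that differed in opposite directions. Cyp27b1 encodes the mitochondrial hydroxylase that makes the active hormone calcitriol. It had 0.623 FPKM in red light skin and 0.120 FPKM in untreated skin, a ratio of 5.19 (log2 2.38). Both means lie below 1 FPKM. If each library value was rounded to 2 decimals, rounding alone puts the ratio between 4.95 and 5.46, and this range leaves out counting error and differences between mice. Adding 1 FPKM to both means brought the log2 ratio to 0.54.

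Cyp27a1, a mitochondrial sterol hydroxylase that acts on cholesterol side chains and can also carry out the first hydroxylation of vitamin D, had 5.91 FPKM in red light skin and 16.4 FPKM in untreated skin. It was 2.77-fold lower (log2 −1.47), the smallest difference of the 7. Cyp27b1 FPKM was 0.105 of Cyp27a1 FPKM in red light skin and 0.00732 of it in untreated skin. This quotient within a group does not depend on how the group was scaled, and Cyp27a1 remained the more abundant of the pair in both.

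Among the other 22 genes of a list of vitamin D synthesis, transport and receptor genes, 5 were in the table, 3 higher and 2 lower, with a median log2 ratio of 1.63, against −1.21 over all listed genes. With 1 FPKM added to both means the median of these 5 genes was 0.057. Vdr, the vitamin D receptor, had 88.6 FPKM in red light skin and 19.4 FPKM in untreated skin, a ratio of 4.58. Hr, the hairless corepressor that binds this receptor and is needed for hair cycling, had 151 FPKM in red light skin and 48.6 FPKM in untreated skin. Its ratio of 3.10 is the median of the 5 genes. Rxrg, a partner receptor, was 2.88-fold lower, at 1.75 FPKM in red light skin against 5.05 FPKM in untreated skin. Cyp27b1 was 0.00704 of Vdr FPKM in red light skin and 0.00620 of it in untreated skin, so the log2 ratios of Cyp27b1 and Vdr differed by 0.18. The other listed members were Lrp2 and Cubn, which are uptake receptors, stood below 1 FPKM in both groups and were picked out once their values were known. Lrp2 is 1 of the 3 higher genes at only 0.04 FPKM in red light skin and 0 in untreated skin, and was ranked beyond all ratios. Among the genes with at least 1 FPKM in either group, 2 were higher and 1 was lower, with the same median.

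Of 18 genes described as vitamin D receptor targets, 5 were in the table, 2 higher and 3 lower, with a median log2 ratio of −1.70. The calcium channel gene Trpv6 had 8.47 FPKM in red light skin and 0.507 FPKM in untreated skin, a ratio of 16.7. Pthlh, which encodes parathyroid hormone-related protein and is repressed by calcitriol in cultured keratinocytes, had 15.3 FPKM in red light skin and 2.52 FPKM in untreated skin, a ratio of 6.09. Camp, the cathelicidin gene, is a vitamin D target in human cells; in these mice it was 5.52-fold lower, at 0.427 FPKM in red light skin against 2.35 FPKM in untreated skin. Spp1, which encodes osteopontin, was 3.35-fold lower. Cd14, a co-receptor for bacterial lipopolysaccharide that is also among the macrophage markers used below, was 3.25-fold lower. The share of lower genes in this short list was close to the 61.3% of the whole table. Since a target such as Pthlh can be repressed by the hormone, the count of directions does not measure receptor activity.

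Retinoid handling is represented by Cyp26b1, the most abundant of the 7 in both groups. The enzyme hydroxylates retinoic acid and so removes it. Cyp26b1 had 27.3 FPKM in red light skin and 84.0 FPKM in untreated skin, and was 3.08-fold lower (log2 −1.62). Its level exceeded that of 83.9% of the listed genes in red light skin and of 94.1% in untreated skin, and adding 1 FPKM changed its log2 ratio only to −1.59.

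Cyp2s1, a P450 of skin and other epithelia whose human enzyme has been reported to act on retinoic acid, went the other way. It had 15.2 FPKM in red light skin and 2.90 FPKM in untreated skin, a ratio of 5.24 (log2 2.39), and its log2 ratio was 2.05 after adding 1 FPKM. Cyp26b1 was 1.79 times Cyp2s1 in red light skin and 28.9 times Cyp2s1 in untreated skin. An unstranded count cannot assign reads by strand where exons of Gm26707 overlap those of Cyp2s1 on the opposite strand in GENCODE M21. The extent of that overlap was not measured, and the sources used here do not say whether the counting used strand. No gene's exons overlapped those of the other 6.

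Among the other 47 genes of the retinoid list, 14 were in the table, 3 higher and 11 lower, with a median log2 ratio of −1.51. Over all listed genes, 61.3% were lower and the median was −1.21. The 3 higher genes of the retinoid list serve retinol uptake, storage and oxidation. Stra6, a retinol transporter, had 28.2 FPKM in red light skin and 3.43 FPKM in untreated skin. Lrat, which esterifies retinol for storage, had 2.60 FPKM in red light skin and 0.897 FPKM in untreated skin. Dhrs9, a dehydrogenase of the short-chain family that oxidises retinol, had 10.3 FPKM in red light skin and 2.24 FPKM in untreated skin.

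The lower retinoid genes included enzymes of retinoic acid synthesis. Aldh1a1, a retinal dehydrogenase, had 20.8 FPKM in red light skin and 86.1 FPKM in untreated skin and was 4.13-fold lower. Adh7, an alcohol dehydrogenase that oxidises retinol, was 3.28-fold lower. Tlcd3b, which stood on the list but is described as a ceramide synthase, was 3.89-fold lower. Cyp26b1 was 1.31 times Aldh1a1 in red light skin and 0.976 times Aldh1a1 in untreated skin, so the breakdown gene and this synthesis gene stood close to each other in both groups. Against Stra6, Cyp26b1 was 0.968 times as abundant in red light skin and 24.5 times as abundant in untreated skin.

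Steroid synthesis is represented by Cyp11a1, which cleaves the cholesterol side chain to give pregnenolone and can also hydroxylate vitamin D. Cyp11a1 had 1.48 FPKM in red light skin and 4.55 FPKM in untreated skin, and was 3.07-fold lower (log2 −1.62, or −1.16 after adding 1 FPKM). Among the other 60 genes of steroid synthesis, conversion and reception, 11 were in the table, 4 higher and 7 lower, with a median log2 ratio of −1.12. Both are close to the whole table, where 61.3% of genes were lower and the median was −1.21. Nr3c2, the mineralocorticoid receptor, was 4.40-fold lower, at 0.533 FPKM in red light skin against 2.35 FPKM in untreated skin.

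Steroid-converting enzymes differed in both directions. Hsd17b14, a dehydrogenase that acts on steroids, had 16.9 FPKM in red light skin and 3.06 FPKM in untreated skin. Hsd17b11 was 2.94-fold lower, and Akr1c13, an aldo-keto reductase, 2.64-fold lower. Crhr1, the receptor for corticotropin-releasing hormone, had 2.15 FPKM in red light skin and 0.00667 FPKM in untreated skin, and its log2 ratio of 8.33 became 1.65 after adding 1 FPKM. Por, the reductase that passes electrons to microsomal P450s such as Cyp1a1, Cyp2s1, Cyp26b1 and Cyp8b1, was chosen for mention after its values were seen and had 60.3 FPKM in red light skin and 122 FPKM in untreated skin.

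Cyp8b1, the liver enzyme that sets the share of cholic acid among bile acids, had 0.150 FPKM in red light skin and 0.583 FPKM in untreated skin. It was 3.89-fold lower (log2 −1.96), the largest difference among the lower 5, but both means lie below 1 FPKM. Rounding of the library values alone puts its fold between 3.73 and 4.06, and the log2 ratio was −0.46 after adding 1 FPKM. Of the other 34 genes of bile acid, oxysterol and cholesterol export, 5 were in the table, 1 higher and 4 lower, with a median log2 ratio of −1.87. Beside Cyp27a1 and Cyp8b1, Ch25h, which makes another side-chain oxysterol, was 2.81-fold lower. Gpr183, the receptor that immune cells use to follow an oxysterol derived from the Ch25h product, was 4.29-fold lower, and Acox2, a peroxisomal oxidase of bile acid side chains, 3.65-fold lower. Fgfr4 encodes the receptor for the hormone that restrains bile acid synthesis in liver. It was 6.54-fold lower, at 0.38 FPKM in red light skin against 2.48 FPKM in untreated skin. Its log2 ratio of −2.71 became −1.34 after adding 1 FPKM. Abcg1, a cholesterol exporter, had 16.7 FPKM in red light skin and 8.13 FPKM in untreated skin.

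Cyp1a1, the P450 most closely tied to AHR activity, had 3.35 FPKM in red light skin and 10.48 FPKM in untreated skin, and was 3.13-fold lower (log2 −1.64, or −1.40 after adding 1 FPKM). Cyp2s1, also described as an AHR target, differed in the opposite direction, so that Cyp2s1 was 4.54 times Cyp1a1 in red light skin and 0.277 times Cyp1a1 in untreated skin. Of the other 25 genes of the AHR list, 10 were in the table, 1 higher and 9 lower, with a median log2 ratio of −1.91. Besides the receptor and its described targets, this list holds related genes such as Arnt2 and Tdo2. Ahr itself and the target gene Tiparp, picked out once their values were known, were 2.26-fold and 2.31-fold lower in red light skin. Cyp1a1 was 0.833 times Ahr in red light skin and 1.15 times Ahr in untreated skin.

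The other listed genes of the AHR list were lower, as Cyp1a1 was, with a single exception. Lower means were also found for 61.3% of all listed genes and for 18 of the other 19 P450 genes. Aldh3a1, an aldehyde dehydrogenase, had 16.4 FPKM in red light skin and 69.6 FPKM in untreated skin. Ahrr, the AHR repressor and itself a target, was 6.32-fold lower, at 0.197 FPKM in red light skin against 1.24 FPKM in untreated skin. Arnt2, a relative of the AHR partner, was 4.67-fold lower, at 0.427 FPKM in red light skin against 1.99 FPKM in untreated skin. Gsta1, a glutathione transferase, was 3.32-fold lower, at 0.59 FPKM in red light skin against 1.96 FPKM in untreated skin. Tdo2, which opens the tryptophan ring on the way to kynurenine, which can activate AHR, was 14.6-fold lower, at 0.110 FPKM in red light skin against 1.61 FPKM in untreated skin. The exception beside Cyp2s1 was Lpar6, a lysophosphatidic acid receptor, with 5.53 FPKM in red light skin and 1.39 FPKM in untreated skin.

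**Figure D2:**
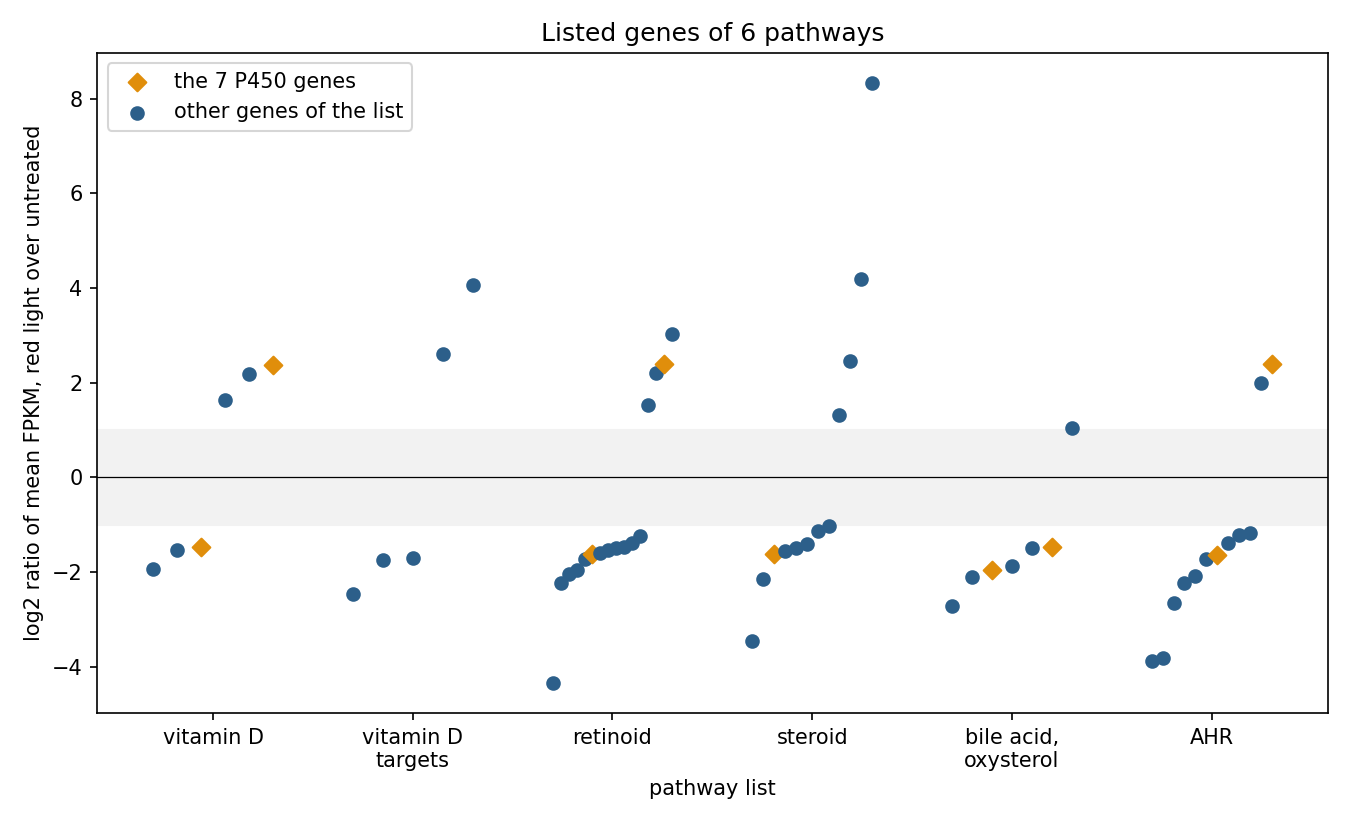
Log2 ratio of mean FPKM, red light over untreated, for the listed genes of 6 pathway lists, with the 7 P450 genes as diamonds and other genes as circles, spread sideways by rank only; the grey band covers ratios between −1 and 1, and Lrp2, at 0 in untreated skin, is not drawn. Cyp2s1 and Cyp27b1 lie near 2.4 in the upper part, with Vdr and Stra6, and the other 5 lie between −1.96 and −1.47.

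The 7 genes were set against the other 19 P450 genes of the table. Of these 19, 1 was higher and 18 were lower. Their median log2 ratio was −1.53, against −1.62 for the 7 and −1.21 for all listed genes. Almost no listed gene differed by less than about 2.001-fold, so the median of a mostly lower set was bound to lie at least about that low. Summed FPKM of the 19 was 272 in red light skin and 688 in untreated skin. Their lower members of at least 1 FPKM ran from Cyp4f13 at 2.204-fold to Cyp2b23 at 11.6-fold, and the 5 lower genes described here lay within that span. Cyp2j6, Cyp2e1, Cyp4v3 and Cyp4f37, the others named by the rule, were 2.38-fold, 2.36-fold, 3.68-fold and 8.46-fold lower. Cyp4f37 was low in both groups, at 0.13 FPKM in red light skin and 1.1 FPKM in untreated skin. The single higher gene of the 19, Cyp3a16, was chosen for mention after its values were seen and was listed at 0.367 FPKM after red light and at 0 in untreated skin, so that Cyp2s1 was the only P450 of the table with at least 1 FPKM that was higher.

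Placed among all listed genes with a mean above 0 in both groups, the 5 lower genes lay within a narrow band near the bulk of lower genes. Cyp11a1, Cyp26b1 and Cyp1a1 had log2 ratios of −1.62, −1.62 and −1.64. None of the 5 reached a log2 ratio of −2, which 18.9% of listed genes did, while both higher genes passed 2, as 18.2% of listed genes did.

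**Figure D3:**
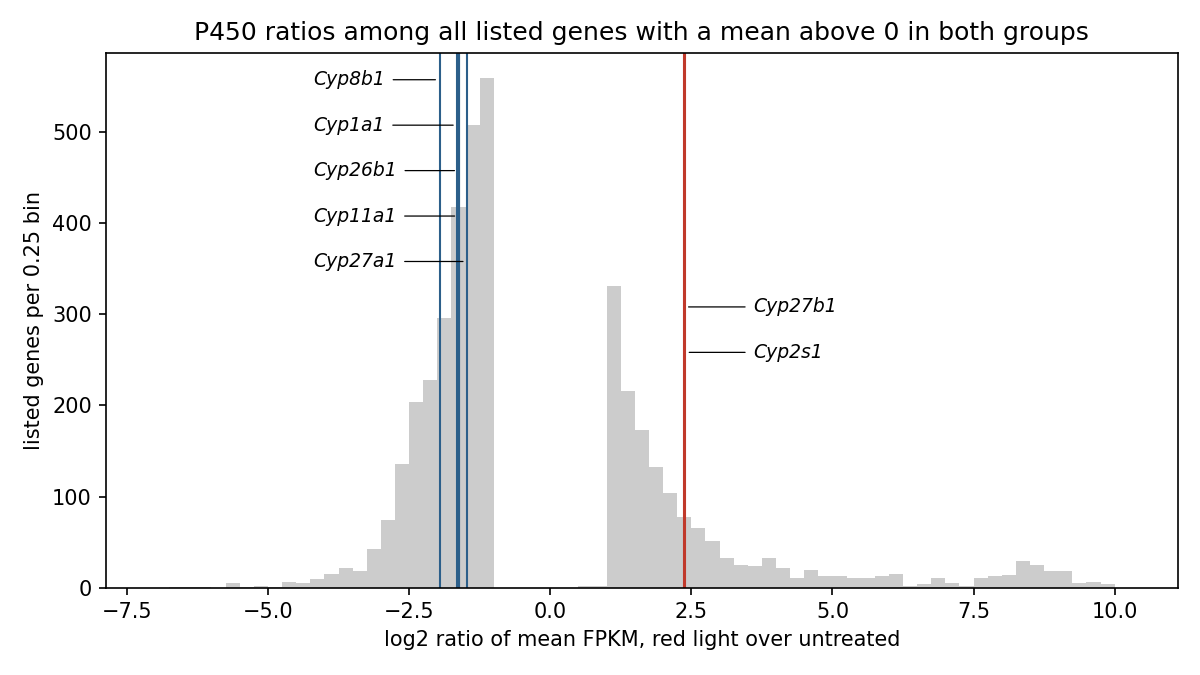
Number of listed genes per bin of log2 ratio, red light over untreated, for the 4114 genes with a mean above 0 in both groups, with vertical lines at the 7 P450 genes. The gap in the middle is the near absence of genes under 2.001-fold, and the 5 lower P450s lie between −1.96 and −1.47 while Cyp27b1 and Cyp2s1 lie at 2.38 and 2.39.

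The genes with the most similar pair of group means were found by the distance between log2 means, over 2 group means only. Closest to Cyp2s1 were Ccna2, Paqr8 and Uhrf1, at distances of 0.06, 0.12 and 0.14. Closest to Cyp27b1 were Syn3, Dnah8 and Ms4a10, and Ctnna3 and Cd28 were among the closest to Cyp8b1. Cyp26b1 stood nearest to Ak1, Dhrs7 and Cma1, and Cyp27a1 nearest to Otulinl, Rab43 and P4ha2. Cyp11a1 stood nearest to Btc, Sirpb1c and Sox15, and Cyp1a1 nearest to Tjp3, Sema6c and Zfp652. All distances not given lay between 0.02 and 0.19. With so few values a gene, likeness of this kind is shared by many genes.

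Markers of the tissue's cell types also differed between the groups, some sets higher and others lower, and their part in the P450 differences was not tested. Of 31 hair shaft and inner root sheath markers, 29 were listed and 29 were higher, summing to 28450 FPKM in red light skin and 96.5 FPKM in untreated skin. Krt82 had 64.8 FPKM in red light skin and 0.123 FPKM in untreated skin, and Crisp1 had 9.50 FPKM in red light skin and was listed at 0 in untreated skin. Of 19 dermal papilla markers, 8 were listed and 5 were higher, with a sum of 23.1 FPKM in red light skin against 16.3 FPKM in untreated skin; Corin was 13.5-fold and Alx4 4.15-fold higher. The 3 lower dermal papilla markers were Prom1, Fgf7 and Lepr, at 3.62-fold, 3.23-fold and 2.503-fold, so this set went both ways. Of 8 basal keratinocyte markers 2 were listed, with Cdh3 2.94-fold higher and Itgb4 2.09-fold lower. These 2 genes summed to 44.2 FPKM in red light skin against 49.8 FPKM in untreated skin. All marker sums leave out the unlisted markers, whose values are not known here, so they do not give the level of a cell type.

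Most or all listed markers of the other sets were lower, as were 5 of the 7 P450 genes. Sebocyte markers were lower in 12 of 12 listed of 21, summing to 526 FPKM in red light skin and 1428 FPKM in untreated skin, with Scd3 11.96-fold and Plin5 4.69-fold lower. Suprabasal keratinocyte markers were lower in 7 of 9 listed of 12 (1982 FPKM in red light skin against 5752 FPKM in untreated skin), with Flg2 4.73-fold and Krt10 4.21-fold lower, while Ivl and Dsc1 were 3.096-fold and 2.63-fold higher. Fibroblast markers were lower in 9 of 9 listed of 15 (590 FPKM in red light skin against 1699 FPKM in untreated skin), with Sfrp4 8.96-fold and Sfrp2 8.12-fold lower. Macrophage markers were lower in 15 of 15 listed of 21 (731 FPKM in red light skin against 1963 FPKM in untreated skin), with Retnla 9.02-fold and Lyz1 4.70-fold lower. Mast cell markers were lower in 9 of 9 listed of 11 (112 FPKM in red light skin against 333 FPKM in untreated skin), with Hdc 5.07-fold and Ms4a2 5-fold lower. Skeletal muscle markers were lower in 14 of 14 listed of 15 (2976 FPKM in red light skin against 17556 FPKM in untreated skin), with Atp2a1 7.58-fold and Myh4 7.55-fold lower. The log2 ratio of the summed FPKM was −1.44 for sebocytes, −1.54 for suprabasal keratinocytes, −1.53 for fibroblasts and −1.42 for macrophages. It was −1.57 for mast cells and −2.56 for skeletal muscle. The 5 lower P450 genes had −1.47 to −1.96. The marker sums hold only listed genes, and almost no listed gene differed by less than about 2.001-fold. A set with every listed marker lower was therefore bound to sum to at least about that much lower, as each lower P450 gene was. Any link between these sets and the P450 genes was not tested. Apart from Crisp1 in untreated skin, no listed marker stood at 0.

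FPKM is a relative scale, and the hair transcripts took up much of the listed FPKM after red light. The 83 hair shaft, inner root sheath and keratin-associated genes of the table summed to 70456 FPKM in red light skin and 229 FPKM in untreated skin, and all other listed genes to 96568 FPKM in red light skin and 126797 FPKM in untreated skin. Scaling each group to those other genes moved every log2 ratio up by 0.39, the median of all listed genes included. The 5 lower P450s then had log2 ratios between −1.57 and −1.08, and Cyp2s1 and Cyp27b1 had 2.78 and 2.77. Scaling to all listed FPKM moved every log2 ratio down by 0.39, to between −2.35 and −1.87 for the lower 5 and to 1.99 and 1.98 for the higher pair. Each scaling moves all genes alike and by less than the smallest listed ratio, so it could not change a direction; the plot of the 5 ways of computing the ratio shows how the sizes moved. The listed genes are a selection, so neither sum stands for the whole library.

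**Figure D4:**
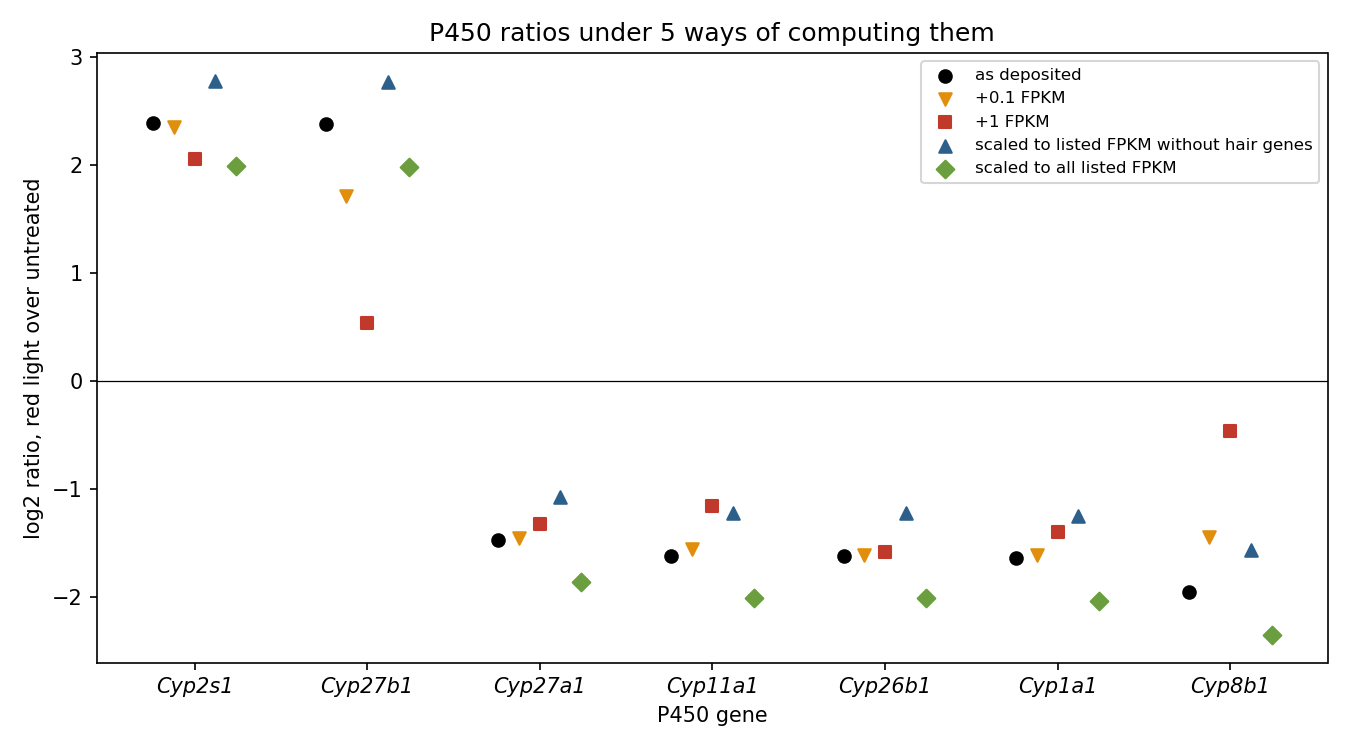
Log2 ratio of each P450 gene, red light over untreated, as deposited, with 0.1 or 1 FPKM added to both means, and after scaling each group to the listed FPKM without hair genes or to all listed FPKM. None of these settings could change a sign here; Cyp27b1 (0.54) and Cyp8b1 (−0.46) shrink most, both with 1 FPKM added.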

How the data were processed

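Per the labels' protocols, RNA was extracted with Trizol, mRNA was captured on oligo(dT) beads, and an NEBNext Ultra RNA kit was used for the libraries. Per the submitters' processing notes, the tools included RSEM, Bowtie2 2.2.8, DESeq2 1.40.2 and R 4.3.1, with no role given for any. The deposited values are mean FPKM per group, averaged by the authors per the file headers. The genome build and the criteria for listing a gene are not given in the sources used here. Each ratio is the red light mean over the untreated mean, with no pseudocount. All 7 labels (UP or DOWN) matched the direction of the means, and none of the 7 rows stood outside the ratio range of its 5 neighbours on each side by over 0.01 (log2). Both means of all 7 could be the mean of 3 numbers that have 2 decimals.

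The genes, the 6 pathway lists and the 9 marker lists were chosen with earlier results of these data known. Lists are described by counts and medians, without the 7 genes, with a mean of 0 ranked beyond all ratios. Where at least 1 group reached 1 FPKM, the text names up to 6 genes with the largest ratio per pathway list, 2 per marker list and 3 at each end of the other P450s, besides the 3 nearest genes of each member. Of the genes this rule gives, 2 are not reported here. Alternatives were pseudocounts of 1 and 0.1, a minimum of 1 FPKM, a log2 ratio of 2 and 2 scalings. Functions were tested on simulated data. Python 3.11.15, numpy 2.4.6, pandas 2.3.3 and matplotlib 3.10.9 were used.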

Additional observations from a re-analysis of the deposited data

How the results depend on the processing

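With 1 FPKM added to both means the log2 ratio of Cyp27b1 was 0.54 in place of 2.38 and that of Cyp8b1 −0.46 in place of −1.96; with 0.1 FPKM added Cyp27b1 had 1.72. The other 5 genes moved by less than 1.5-fold under every setting tried. Direction was not tested by any of these, since a pseudocount cannot change it and each scaling moves all genes alike by less than the smallest listed ratio. Of genes with at least 1 FPKM in either group, 1 was higher and 4 were lower. At an absolute log2 ratio of 2 or more, 2 were higher and 0 were lower. Among the pathway lists, 1 FPKM added brought the median of the vitamin D list to 0.057 in place of 1.63 and that of the AHR list to −1.02 in place of −1.91, and the minimum of 1 FPKM left 1 lower gene in the vitamin D list in place of 2. The other 78 values moved by 1.5-fold or less. No test could be run, and replicates could not be left out, since only group means were used. No paired analysis was possible because a gene has 1 mean per group. The read depth is not known, so counting error in Cyp27b1 and Cyp8b1 is unknown as well.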
